A study of Mus musculus with 36 samples.

Results

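Follicular dendritic cells are the stromal cells of the B cell follicle, and 7 genes that encode their receptors and markers are described here across time of treatment with a decoy of the lymphotoxin-beta receptor. The members are the complement receptor Cr2, the Fc receptors Fcer2a and Fcgr2b, and the marker genes Clu, Prnp, Lrat and Ltbp3. Every probe set listed under one of these symbols alone was taken, 7 genes of 18194 that a probe set of the series named alone. This gave 20 probe sets, 16 of the 22626 on array A and 4 of the 22511 on array B. Of these 20, 16 were bright enough to be tested (15 from array A, 1 from array B), and each of the 7 genes had at least 1 tested probe set.

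Whole mesenteric lymph nodes of mice were profiled on 2 Affymetrix array types, called A and B here, with different probe sets. The 6 groups were nodes treated with phosphate-buffered saline (PBS, day 0) and nodes treated with the soluble lymphotoxin-beta receptor (sLTbetaR-Ig in the series title) for 1, 2, 3, 27 or 35 days, each with 3 samples per array and 36 in all. The sources used here give neither the strain, sex and age of the mice nor whether the 3 samples of a group are separate mice. The p-values therefore reflect the spread among these samples alone, which may be technical. The labels describe PBS samples at day 0 alone and no control fusion protein, so time of harvest, exposure to a foreign protein and loss of lymphotoxin signal cannot be told apart.

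Follicular dendritic cells hold antigen in the follicle as immune complexes, which they bind through complement and Fc receptors and show to B cells. They are maintained by lymphotoxin that B cells carry and that acts through the lymphotoxin-beta receptor and NF-kB. Cr2, Fcer2a and Fcgr2b are expressed by B cells as well, while Clu, Prnp, Lrat and Ltbp3 are expressed by several stromal cells, so none of the 7 belongs to follicular dendritic cells alone in a whole node. In such bulk RNA, fewer cells of a type and less RNA per cell cannot be told apart.

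The label was checked against 20 other genes of follicular dendritic cells, of which 11 were bright enough to be tested. These genes need not belong to such cells alone, and Pdpn is also in the fibroblast list used below. Mfge8, the secreted protein with which these cells tag dying cells, averaged 3449 ± 149 intensity units (SD, n = 3) in PBS samples, and the follicular chemokine Cxcl13 averaged 1457 ± 102 (n = 3), so RNA of such genes was present. The summed intensity of the 11 ran from 15760 to 16230 in PBS samples, 12770 to 13030 at day 3 and 14670 to 15830 at day 35. Most of the drop lay in 3 genes, Mfge8, Cxcl13 and Madcam1, which together summed to 5394 to 5835 in PBS samples and 2692 to 2731 at day 3. The other 8 summed to 10360 to 10520 in PBS samples and 10080 to 10300 at day 3, and the median log2 change of the 11 was -0.02. Of the 20 B cell marker genes, 17 were tested on array A, and their summed intensity ran from 23950 to 25490 in PBS samples, from 22490 to 25410 at day 3 and from 24250 to 26340 at day 35. The B cell sums of every treated group overlapped those of PBS samples.

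The tests are limma fits of log2 intensity over all 6 groups, with p-values adjusted by the Benjamini-Hochberg method over every tested probe set of an array and called at 0.05. Changes are log2 differences, treated minus PBS unless said otherwise, each with its fitted standard error (SE). No tested member was called at day 1, day 2 or day 35 in the limma fit, where 6, 8 and 2 of the 16 had an unadjusted p under 0.05. Of all tested probe sets, 0.0164%, 0.114% and 7.36% were called on those days on array A and 0.00799%, 0.0240% and 3.59% on array B. On array A 3.36%, 5.52% and 22.8% had an unadjusted p under 0.05.

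At day 3, 2 of the 15 members on array A were called, both lower (a Clu and a Fcer2a probe set), where 0.417% of all tested probe sets of the array were called lower. At day 27, 1 of 15 was called lower (Clu), against 2.60% of the array. The F test, which asks whether any treated day differed from PBS, called 6 of 15 members on array A and the 1 on array B, against 7.71% and 0.951% of the arrays. Those 7 were the 4 Clu probe sets, 1 of each pair for Prnp and Fcer2a, and Lrat. The main fit gave all arrays the same weight. In an alternative fit with array weights, 3 arrays of type A stood apart by low weight, from 0.23 to 0.29 against 0.54 to 3.37 for the others. They were day 3 sample 3, day 27 sample 2 and day 35 sample 3. Without them 0, 4, 2, 1 and 1 members were called at days 1, 2, 3, 27 and 35, 8 in the F test, 4 for the mean of days 1 to 3 and 6 late against early, the 4 at day 2 being 3 Clu probe sets and Prnp. The share of all probe sets called in that fit is not given here, so these counts cannot be set against a background.

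**Figure D1:**
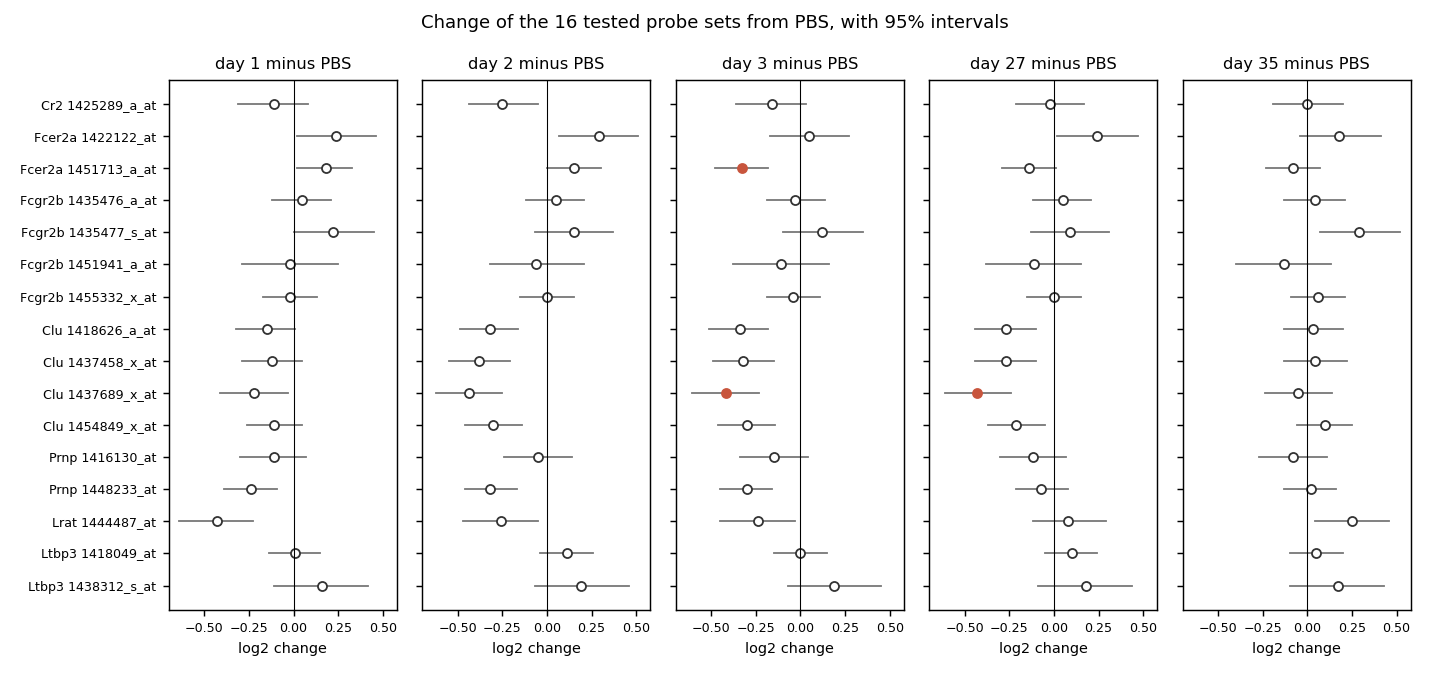
Log2 change from PBS (horizontal axis) of the 16 tested probe sets (vertical axis), 1 panel per day, with 95% confidence intervals of the fit and filled points where the adjusted p was under 0.05. Filled points are seen for Fcer2a 1451713_a_at and Clu 1437689_x_at at day 3 and for Clu 1437689_x_at at day 27, and all intervals of Clu at day 35 include 0.

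Cr2 encodes complement receptors 2 and 1 of the mouse, which bind fragments of C3 on immune complexes. Its probe set 1425289_a_at read 1270, 1179 and 1170 intensity units in PBS samples, 1174, 1171 and 1006 at day 1, 1083, 1058 and 918 at day 2, and 998, 1124 and 1110 at day 3. Readings were 1181, 1296 and 1094 at day 27 and 1091, 1321 and 1222 at day 35. All samples of days 2 and 3 lay below the lowest PBS sample, while days 1, 27 and 35 overlapped PBS.

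The Cr2 difference was -0.25 at day 2 (95% interval -0.44 to -0.05, limma adjusted p = 0.759) and -0.16 at day 3 (interval -0.36 to 0.03), and neither was called. At day 35 it was 0.00, with an interval from -0.19 to 0.20. The mean of days 27 and 35 stood 0.17 above the mean of days 1, 2 and 3 (SE 0.0595, adjusted p = 0.0687), which missed the threshold. That contrast passed with quantile normalisation (0.20, adjusted p = 0.045), with array weights (0.14, adjusted p = 0.0361) and without day 35 replicate 1 (0.20, adjusted p = 0.0346). Every pair of neighbouring groups in the order of its means (day 35, PBS, day 27, day 1, day 3, day 2) overlapped.

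Fcer2a encodes CD23, the low-affinity receptor for IgE, carried by follicular B cells and by follicular dendritic cells. Probe set 1451713_a_at read 593, 574 and 606 in PBS samples, 729, 673 and 605 at day 1, 679, 685 and 605 at day 2 and 477, 457 and 476 at day 3. It read 532, 555 and 519 at day 27 and 540, 577 and 565 at day 35. The 3 readings of day 3 were the lowest of the 18 arrays, days 1 and 2 overlapped PBS, and day 27 lay below PBS with no overlap.

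At day 3 Fcer2a fell by 0.33 on this probe set (log2, SE 0.0719, limma adjusted p = 0.0433, lower in 3 of 3 samples than any PBS sample). Before that, it stood at 0.18 (adjusted p = 0.998) and 0.15 (adjusted p = 0.913) above PBS at days 1 and 2, not called. Day 3 against day 1, a contrast added after these values were seen, gave -0.51 (SE 0.0719, adjusted p = 0.00315). In that contrast 1 of the 15 members on array A was called lower, against 0.213% of the array. At day 27 the difference was -0.14 (adjusted p = 0.297) and at day 35 -0.08 (adjusted p = 0.566).

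The other Fcer2a probe set, 1422122_at, did not fall below PBS at day 3. It read 1139, 1182 and 873 in PBS samples and 1146, 1144 and 992 at day 3, which overlapped, a difference of 0.05 (SE 0.106, adjusted p = 0.92). Its differences at days 1, 2, 27 and 35 were 0.24, 0.29, 0.24 and 0.18, none called. Day 3 against day 1 gave -0.19 (limma adjusted p = 0.703), of the same sign as on the first probe set but not called. Over the 18 arrays the pair correlated with r = 0.28, a description without a test, so the day 3 call rests on 1 of 2 probe sets. The call was lost whichever of the 6 PBS and day 3 arrays was left out (adjusted p up to 0.188), with quantile normalisation (0.054), with a common median (0.0504), without the 3 arrays of lowest weight (0.0694) and in a fit of only those groups (0.143), with log2 changes from -0.35 to -0.31 throughout.

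B cells carry Fcer2a, and their markers were tested beside it. None of the 19 tested B cell marker genes was called at day 3 in the limma fit, and 3 had an unadjusted p under 0.05, against 10.1% of array A. Named after their values were seen, the 3 were Cd79a, a signalling chain of the B cell receptor, the B cell kinase Blk and the surface receptor Cd72. Cd79a read 3408 ± 60.1 in PBS samples, 3508 ± 291 at day 1 and 2771 ± 214 at day 3 (SD, n = 3 each), a day 3 difference of -0.30 (limma adjusted p = 0.0729) beside the -0.33 of Fcer2a. Blk differed by -0.17 (adjusted p = 0.398) and Cd72 by 0.18 (adjusted p = 0.406). With the mean B cell marker level as a covariate, the Fcer2a change at day 3 was -0.33 (adjusted p = 0.0341). At days 27 and 35, 1 of the 19 was called, again Cd79a, at -0.38 (adjusted p = 0.00594) and -0.35 (adjusted p = 0.00594), where 2.60% and 5.58% of array A were called lower. That share of the list is near the background at day 35. The median change of the 19 markers at day 3 was 0.00, so the covariate could take little out of the Fcer2a change. The part of B cell RNA in that change was not tested.

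Fcgr2b encodes the inhibitory IgG receptor, with which follicular dendritic cells retain immune complexes and B cells limit their activation. Its brightest probe set, 1435476_a_at, read from 1145 to 1343 in PBS samples, 1256 to 1270 at day 1, 1243 to 1305 at day 2, 1164 to 1232 at day 3, 1234 to 1299 at day 27 and 1094 to 1365 at day 35. Every treated group overlapped PBS, and its differences ran from -0.03 at day 3 to 0.05 at days 1, 2 and 27.

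The 4 tested Fcgr2b probe sets gave no call on any day. The widest difference was 0.29 on 1435477_s_at at day 35 (SE 0.106, adjusted p = 0.104), where the day 35 samples read 574 to 714 against 487.5 to 552 in PBS samples, without overlap. Without the 3 arrays of lowest weight it was 0.37 (adjusted p = 0.0101) and was called. The other 3 probe sets overlapped PBS at day 35, with differences of 0.04, -0.13 and 0.06. One more probe set, on array B, was at or under the intensity floor on all 18 arrays and was not tested.

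**Figure D2:**
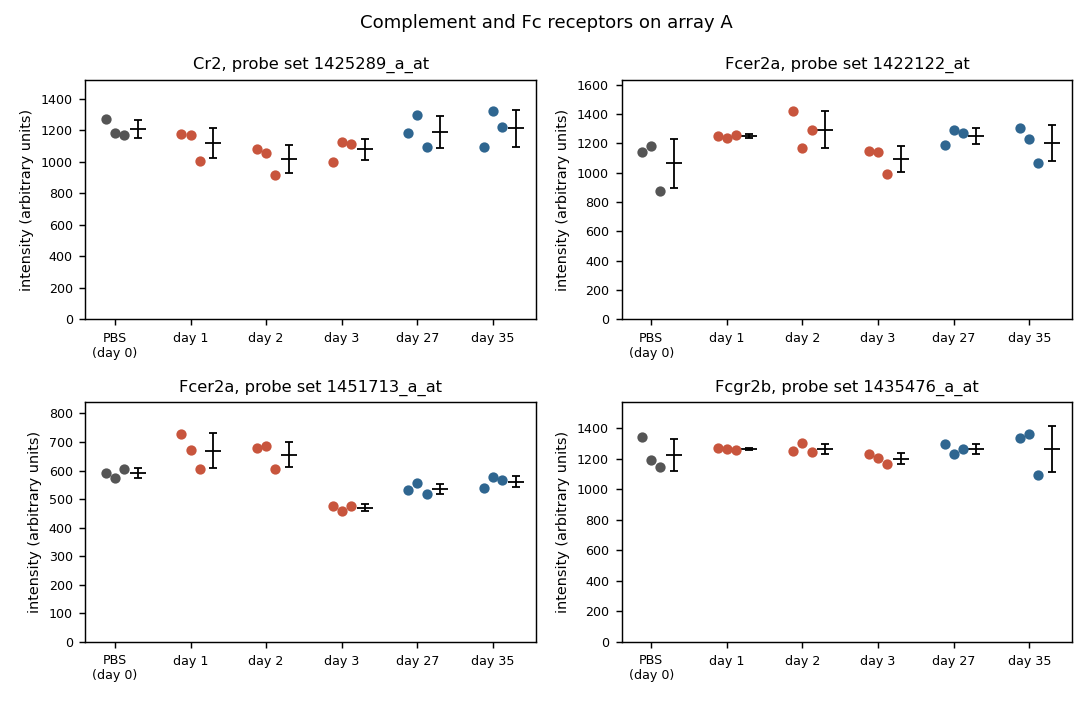
Intensity in arbitrary units (vertical axis, from 0) of Cr2, of both Fcer2a probe sets and of the brightest Fcgr2b probe set, by group (horizontal axis), with 1 point per sample and the mean ± SD of 3 beside it. The 3 day 3 samples of Fcer2a 1451713_a_at sit between 457 and 477, below all PBS samples, while on 1422122_at days 3 and 0 overlap.

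The promoters of the Cr2 and Fcer2a genes are shown because NF-kB acts downstream of the lymphotoxin-beta receptor. They run from 250 bases before to 50 after the start of transcription in RefSeq (GRCm38.p6), 5′ to 3′ on the strand of the gene. The Cr2 window is chr1:195176670-195176969 and the window of the first of 3 Fcer2a starts is chr8:3694125-3694424, both on the minus strand. Capitals mark matches, on either strand, to an NF-kB-like motif (GGG, any 5 bases, then CC) or to the GC box GGGCGG.
Cr2: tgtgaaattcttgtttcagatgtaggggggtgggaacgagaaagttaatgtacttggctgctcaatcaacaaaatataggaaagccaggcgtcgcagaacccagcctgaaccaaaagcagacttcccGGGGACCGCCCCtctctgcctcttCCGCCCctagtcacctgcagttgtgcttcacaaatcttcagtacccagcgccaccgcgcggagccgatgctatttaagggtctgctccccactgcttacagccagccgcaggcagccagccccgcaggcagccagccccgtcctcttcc
Fcer2a start 1: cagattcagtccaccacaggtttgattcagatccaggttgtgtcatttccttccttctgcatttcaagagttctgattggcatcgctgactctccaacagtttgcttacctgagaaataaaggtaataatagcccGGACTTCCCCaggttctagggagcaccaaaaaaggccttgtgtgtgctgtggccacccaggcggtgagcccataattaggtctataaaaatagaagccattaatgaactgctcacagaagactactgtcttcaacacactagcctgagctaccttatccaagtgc

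In Cr2, 4 overlapping matches to the NF-kB-like motif lay between bases -123 and -112 from the start, and they overlapped 1 of its 2 GC boxes. The first Fcer2a start had 1 NF-kB-like match, from -115 to -106, and a TATAAA run from -33 to -28, and the other two Fcer2a starts had no NF-kB-like match. Fcgr2b had 2 overlapping NF-kB-like matches between -67 and -57. Prnp, Lrat and Ltbp3 had none in their windows. The motif is short and occurred in 50.8% of 32851 promoters of this length, so a match describes these letters and not a bound site. Promoters were matched for 6 of the 7 genes, all but Clu.

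Clu encodes clusterin, a secreted chaperone and apolipoprotein that is abundant in follicular dendritic cells. Its mean was lower on days 2, 3 and 27 than in PBS samples on all 4 of its probe sets, although most of these differences missed the threshold. Probe set 1437689_x_at read 2926, 3252 and 3072 in PBS samples, 2745, 2608 and 2582 at day 1, 2322, 2173 and 2343 at day 2 and 2215, 2326 and 2371 at day 3. It read 2301, 1942 and 2694 at day 27 and 2853, 3174 and 2909 at day 35. All samples of days 1, 2, 3 and 27 lay below the lowest PBS sample, and day 35 overlapped PBS.

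On 1437689_x_at, Clu fell by 0.42 at day 3 (log2, SE 0.0884, limma adjusted p = 0.0357) and by 0.43 at day 27 (adjusted p = 0.0118). At day 2 the difference was of like size, -0.44, with an adjusted p of 0.0792. At day 35 it was -0.05 (interval -0.24 to 0.14). In the order of means, PBS and day 35 did not separate, day 1 came below them, and days 3, 27 and 2 overlapped each other at the bottom.

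The other 3 Clu probe sets missed the threshold on every single day. On 1418626_a_at the PBS samples read 3401, 3709 and 3414, the day 2 samples 2814, 2825 and 2778 and the day 3 samples 2616, 2721 and 2965. The day 27 samples read 2882, 2580 and 3304 and the day 35 samples 3322, 3767 and 3679. Days 1, 2, 3 and 27 did not overlap PBS, and the differences were -0.32 at day 2 (adjusted p = 0.238), -0.34 at day 3 (0.0599), -0.27 at day 27 (0.0708) and 0.03 at day 35.

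On 1437458_x_at the 4 differences were -0.38, -0.32, -0.27 and 0.04, and on 1454849_x_at they were -0.30, -0.30, -0.21 and 0.10, none called. The 4 probe sets correlated with each other at r = 0.91 to 0.95 over the 18 arrays. In the manufacturer's naming the suffix _x_at, which 3 of the 4 carry, marks probe sets whose probes can also match other transcripts. The 4 probe sets read the same RNA samples and are not replicates of each other.

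**Figure D3:**
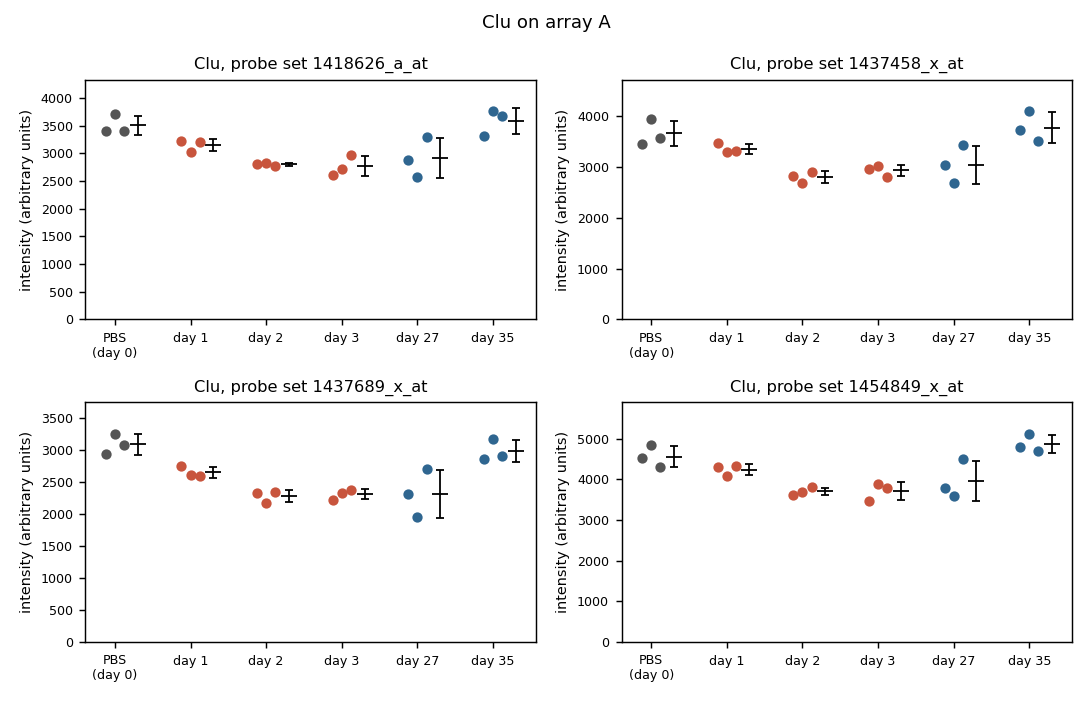
Intensity in arbitrary units (vertical axis, from 0) of the 4 Clu probe sets by group (horizontal axis), with 1 point per sample and the mean ± SD of 3 beside it. On each probe set all day 2 and day 3 samples lie below all PBS samples, day 27 is the most spread, and day 35 overlaps PBS.

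The lower level at day 3 was called in 10 of 11 other settings for 1437689_x_at, with changes from -0.48 to -0.42, and was lost with no filter on dim probe sets (adjusted p = 0.0551). It was also lost whichever of the 6 arrays was left out (adjusted p up to 0.158). At day 27 the call was lost without PBS replicate 2 (0.0589), without PBS replicate 3 (0.0513) and in a fit of only those groups (0.111). With the B cell marker level as a covariate, the day 3 change of this probe set was -0.42 (adjusted p = 0.0122). The B cell markers had a median change of 0.00 at day 3, so the covariate could take out little.

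Between day 27 and day 35 the 4 Clu probe sets differed by 0.30 to 0.38, with unadjusted p from 0.000453 to 0.00123 and limma adjusted p from 0.291 to 0.402. They were the only 4 of the 16 members with an unadjusted p under 0.05 there, where 0% of either array was called and 6.66% of array A had such a p. Without day 27 replicate 3, which read highest of its group on each Clu probe set, 2 of them were called, 1437689_x_at at 0.49 and 1454849_x_at at 0.40 (adjusted p = 0.0334 each). Leaving out the highest sample of the lower group can only widen this difference, and no other single omission called a Clu probe set here. Array weights called all 4 Clu probe sets. The share of the array called in these alternative fits is not given here.

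Prnp encodes the cellular prion protein, which follicular dendritic cells express strongly and which makes them a site where prions accumulate. On probe set 1448233_at it read 1263, 1282 and 1271 in PBS samples, 1076, 1075 and 1079 at day 1, 942, 994 and 1137 at day 2 and 996, 1053 and 1048 at day 3. It read 1237, 1133 and 1270 at day 27 and 1277, 1291 and 1300 at day 35. All 9 samples of days 1, 2 and 3 lay below every PBS sample, and days 27 and 35 overlapped PBS.

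The mean of days 1, 2 and 3 was 0.29 below PBS (SE 0.0565, limma adjusted p = 0.0492), which made Prnp the 1 of 15 members on array A called in that contrast, against 0.114% of the array called lower. The single days gave -0.24, -0.32 and -0.30 (adjusted p = 0.998, 0.114 and 0.0599). By day 35 the difference was 0.02 (interval -0.13 to 0.16). The call of the 3-day mean was narrow: it was kept in 1 of 12 fits that left out an array, the one without day 2 replicate 3, and the adjusted p reached 0.334 without PBS replicate 3. It was also lost with each array scaled to a common median (0.0695), a filter on 9 of 18 arrays (0.0501), no variance trend (0.0512) or the replicate block (0.0639), with changes from -0.31 to -0.27 throughout.

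Late against early, Prnp was called more stably. The mean of days 27 and 35 stood 0.26 above the mean of days 1, 2 and 3 (SE 0.0447, limma adjusted p = 0.000586), and this was called in all 11 other settings and all 15 fits without an array (0.23 to 0.29, adjusted p up to 0.00266). The other Prnp probe set, 1416130_at, read 1309 to 1412 in PBS samples, 1192 to 1520 at day 2, 1179 to 1280 at day 3 and 1200 to 1386 at day 35. Only at day 3 did it not overlap PBS (-0.15, adjusted p = 0.602), its late minus early difference was 0.01 (adjusted p = 0.961), and it correlated with 1448233_at at r = 0.41. The Prnp results thus hold for 1 of 2 probe sets.

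Lrat encodes lecithin-retinol acyltransferase, which stores vitamin A as retinyl esters in stromal cells. Its probe set on array B, 1444487_at, was dim, at 227, 219 and 208 in PBS samples against an array floor of 76.6. It read 164, 154 and 166 at day 1, 155, 188 and 206 at day 2 and 186, 203 and 167 at day 3. Readings at day 27 were 219, 225 and 250 and at day 35 263, 251 and 264. All samples of days 1, 2 and 3 lay below every PBS sample, day 27 overlapped PBS, and day 35 lay above it.

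The differences from PBS were -0.43, -0.26 and -0.24 at days 1, 2 and 3 (adjusted p = 0.36, 0.667 and 0.547) and 0.08 and 0.25 at days 27 and 35 (0.777 and 0.172), none called, where 0.00799%, 0.0240%, 0.0799%, 0.328% and 3.59% of array B were called. Late minus early, Lrat rose by 0.48 (SE 0.0641, limma adjusted p = 0.00057), where 0.240% of array B was called higher. This too was called in all 11 other settings and all 15 fits without an array (0.44 to 0.51, adjusted p up to 0.0053). With a B cell marker covariate, built from 3 such genes on array B, it was 0.48 (adjusted p = 0.000213). The 19 tested B cell markers had a median late minus early change of 0.03, so a covariate of such genes could take out little. The part of B cell RNA in the Lrat change was not tested. The Lrat probe set on array A was at or under the floor on 17 of 18 arrays and was not tested.

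**Figure D4:**
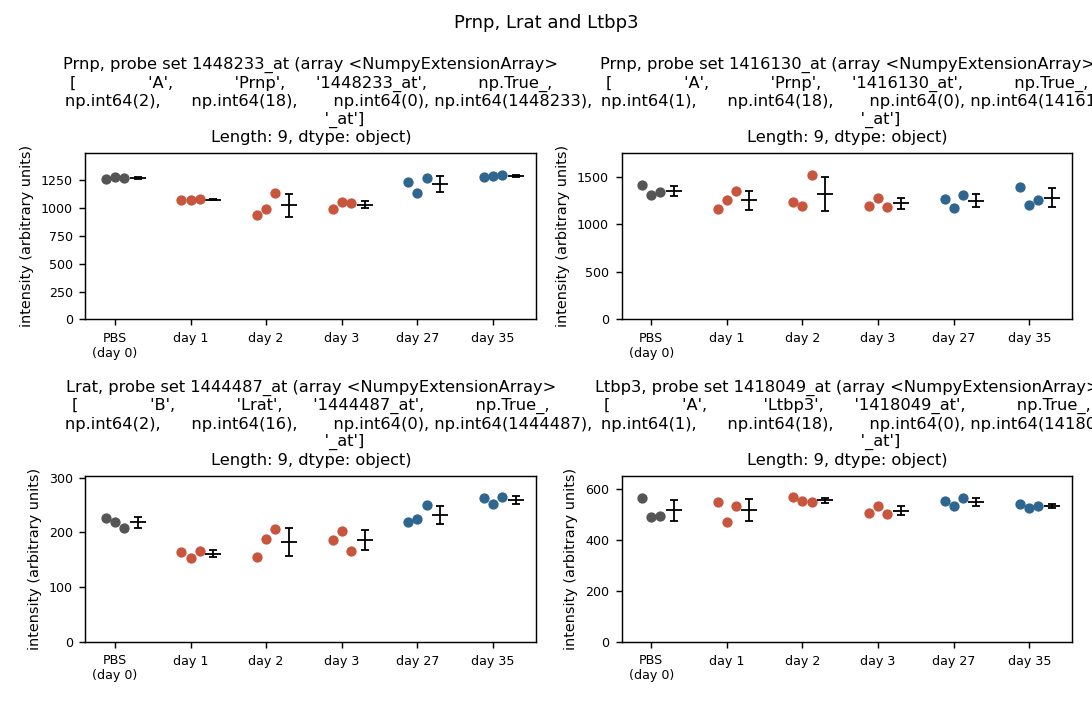
Intensity in arbitrary units (vertical axis, from 0) of both Prnp probe sets, of Lrat on array B and of the brighter Ltbp3 probe set, by group (horizontal axis), with 1 point per sample and the mean ± SD of 3 beside it. Days 1, 2 and 3 lie below PBS without overlap for Prnp 1448233_at and for Lrat, and Ltbp3 stays between 469 and 567 in all 18 samples.

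On array A, 4 of 15 members were called higher late than early, Prnp and 3 Clu probe sets, against 4.98% of the array. The Clu differences were 0.15 on 1418626_a_at (SE 0.0511, adjusted p = 0.0491), 0.16 on 1437458_x_at (SE 0.0525, adjusted p = 0.0443) and 0.18 on 1454849_x_at (SE 0.0487, adjusted p = 0.0185). On 1437689_x_at it was 0.12 (adjusted p = 0.169). The late mean of Clu joins unlike days. On the 3 called probe sets, in the order above, day 27 averaged 2922, 3047 and 3959, below day 1 at 3153, 3357 and 4236. Day 35 averaged 3589, 3774 and 4872, so the late level was high at day 35 alone. The call of 1454849_x_at was lost without day 27 replicate 3 (0.0613) or day 35 replicate 2 (0.0632). The calls of the other two were narrow. That of 1418626_a_at was kept in 3 of 15 fits without an array and was lost with a common median (adjusted p = 0.164), no filter (0.0613), no variance trend (0.0603) and a fit of only the groups compared (0.0661). That of 1437458_x_at was kept in 2 of 15 and was lost in the same settings (0.0982, 0.0584, 0.0547 and 0.0551) and with the replicate block (0.0595).

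The promoters of Prnp and Lrat are shown because both genes had a probe set called higher late than early, Prnp on 1448233_at but not on its other probe set. In the same RefSeq windows, Prnp lies at chr2:131909678-131909977 on the plus strand and Lrat at chr3:82903925-82904224 on the minus strand. Capitals again mark the 2 motifs, here only GC boxes.
Prnp: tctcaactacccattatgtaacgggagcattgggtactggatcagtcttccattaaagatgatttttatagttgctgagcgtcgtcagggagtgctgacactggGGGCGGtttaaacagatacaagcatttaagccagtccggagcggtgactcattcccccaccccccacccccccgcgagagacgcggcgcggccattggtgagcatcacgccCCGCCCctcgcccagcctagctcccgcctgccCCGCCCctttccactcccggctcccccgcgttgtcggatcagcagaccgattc
Lrat: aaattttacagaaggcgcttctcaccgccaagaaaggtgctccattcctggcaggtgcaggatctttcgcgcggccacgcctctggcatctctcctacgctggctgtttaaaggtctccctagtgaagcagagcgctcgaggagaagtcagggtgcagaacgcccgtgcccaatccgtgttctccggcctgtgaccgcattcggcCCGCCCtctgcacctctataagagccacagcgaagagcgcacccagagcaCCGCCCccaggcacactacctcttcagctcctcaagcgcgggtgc

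Prnp had 3 GC boxes, at -146 to -141, -35 to -30 and -3 to 3, and Lrat had 2, at -45 to -40 and 6 to 11, of which all but the first of Prnp were on the opposite strand. GC boxes were found in 35.7% of the 32851 promoters, and in Cr2 (2) and the second Fcer2a start (1) among the other members. Fcgr2b and Ltbp3 had none in their windows.

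Ltbp3 encodes a latent TGF-beta binding protein of the extracellular matrix. Its probe set 1418049_at read 489 to 563 in PBS samples, 469 to 547 at day 1, 548 to 567 at day 2, 500.3 to 533 at day 3, 532 to 564 at day 27 and 525.5 to 539 at day 35. All groups overlapped PBS and the differences ran from 0.00 to 0.11. The second tested probe set, 1438312_s_at, differed by 0.16 to 0.19 on every day, none called, with a correlation of 0.11 to the first.

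Of the Ltbp3 probe sets on array B, 1 was at or under the floor on 17 of 18 arrays. The other, 1456189_x_at, never read above the array median and was not tested, but it read 107.4 to 124.3 in PBS samples and 89.8 to 100.5 at day 35, without overlap. With no filter on dim probe sets its day 35 difference was -0.30 (limma adjusted p = 0.0471), opposite in sign to both probe sets on array A.

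Counted without a test, groups that lay wholly below PBS were commonest at days 2 and 3. On array A, 3 of 15 members lay below at day 1, 6 at day 2, 8 at day 3, 4 at day 27 and 0 at day 35, against 3.63%, 4.81%, 6.96%, 9.69% and 13.2% of all tested probe sets. Those wholly above PBS numbered 2, 1, 0, 1 and 1, against 7.14%, 9.50%, 9.08%, 10.9% and 15.9%. Of the 8 at day 3, 4 are the Clu probe sets, which share a transcript, and the others are both Prnp probe sets, Cr2 and Fcer2a 1451713_a_at. On array B, Lrat lay below PBS at days 1, 2 and 3, as did 9.01%, 7.79% and 8.43% of the array, and above it at day 35, as did 15.4%.

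Each member was compared with every other gene for the likeness of its course, by Pearson's r of its brightest tested probe set over the 18 arrays. All points share the same arrays, and the values are a description. Clu was most like Mfge8 (r = 0.91), then Ccnd1 (0.87) and Rnf26 (0.83), of 7801 genes on array A. Mfge8 read 3449 ± 149 in PBS samples, 1380 ± 66.6 at day 3 and 3354 ± 283 at day 35 (SD, n = 3 each), a change of -1.32 at day 3 (limma adjusted p = 1.59e-06). The Clu probe set compared with it, 1454849_x_at, stood at -0.30 at day 3.

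The nearest genes of Cr2 were Map3k4 (0.83), Atg5 (0.71) and Hccs (0.71), and those of Fcer2a, on 1422122_at, were Eif4ebp2 (0.93), Syn3 (0.86) and Syt6 (0.85). Fcgr2b was nearest to Krt4 (0.89), Ap3b2 (0.87) and Ptdss2 (0.87), and Ltbp3 to Dph2 (0.82), Brca1 (0.80) and Ttr (0.77). Prnp on 1416130_at was nearest to Dusp3 (0.73), Sparc (0.71) and Mmp23 (0.70). Lrat was nearest, of 6396 genes on array B, to Cycs (0.89), Clic5 (0.85) and Zfp953 (0.84). On these brightest probe sets, no follicular dendritic cell gene of the 20 listed was among the 3 nearest of any array A member other than Clu. For Lrat the comparison cannot decide this, because the 11 tested genes of that list were taken from array A and Lrat was compared within array B.

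The brightest probe sets of Prnp and Fcer2a are not the ones that carry their calls, so the other tested probe sets were compared as well, a choice made after the values were seen. Prnp on 1448233_at, like Clu, was nearest to Mfge8 (r = 0.87), then to Ccnd1 (0.83) and Serpina10 (0.80). Fcer2a on 1451713_a_at was nearest to Sh2b3 (0.81), Rapgef1 (0.80) and Igk (0.79). The other 3 Clu probe sets also had Mfge8 first, at 0.88 to 0.92, and the other probe sets of Fcgr2b and Ltbp3 had no listed follicular dendritic cell gene among their 3 nearest.

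Among those 20 other follicular dendritic cell genes, 11 were tested, and 0, 3, 3, 3 and 2 were called lower at days 1, 2, 3, 27 and 35, with 4, 4, 4, 3 and 3 at an unadjusted p under 0.05. Of array A, 0.0164%, 0.0899%, 0.417%, 2.60% and 5.58% were called lower and 3.36%, 5.52%, 10.1%, 18.4% and 22.8% had such a p, so the unadjusted counts at days 27 and 35 are near the background. The genes called were Mfge8, Cxcl13 and the adhesion molecule Madcam1, without Mfge8 at day 35. At day 3 Madcam1 fell by 0.78 and Cxcl13 by 0.67 (limma adjusted p = 0.000609 and 0.00118), against 0.30 to 0.42 on the 4 Clu probe sets. Of those only 1437689_x_at, at 0.42, was called. At day 35 Madcam1 was still lower by 0.57 and Cxcl13 by 0.44 (adjusted p = 0.00272 and 0.00774), where no Clu probe set was called. The median change of the list at day 3 was -0.02, and that of the 16 members was -0.16, beside 0.019 over array A.

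Genes of the pathways in which the members act were counted in the same fits. Complement receptors and regulators (9 of 15 tested), Fc receptors and their signalling proteins (12 of 16), clusterin-related apolipoproteins and lipoprotein receptors (9 of 10), prion-related proteins (4 of 8), retinoid enzymes and receptors (12 of 20) and latent TGF-beta proteins (12 of 20) had no limma call at days 1, 2 or 3. Between 0 and 2 of each list at day 1 and between 0 and 3 at day 2 had an unadjusted p under 0.05. At day 3 there were 0, 3, 2, 0, 1 and 1, and the list medians ran from -0.03 (retinoid) to 0.09 (clusterin-related), beside 0.019 over all tested probe sets of array A. On that array, which holds all but 5 of these genes, 3.36%, 5.52% and 10.1% of probe sets had an unadjusted p under 0.05 at days 1, 2 and 3, so day 3 counts such as 1 of 12 are at the background.

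Late minus early, 3 of the 12 Fc receptor genes fell, against 10.4% of array A called lower: Fcer1g, the signalling chain of activating Fc receptors, by 0.27 (limma adjusted p = 0.0152), the activating IgG receptor Fcgr3 by 0.24 (0.021) and the neonatal Fc receptor Fcgrt by 0.23 (0.0392). In the same contrast Apoe fell by 0.19 (0.0193) and Tgfb1 by 0.29 (0.000197), while the integrin chains Itgb2 and Itgav rose by 0.18 (0.00881) and 0.36 (0.00351). Apoe was 1 of 9 and Tgfb1 1 of 12 tested genes of their lists called lower, which is near the 10.4% of array A. Itgb2 was 1 of 9 and Itgav 1 of 12 called higher, against 4.98%. At day 27 the lipoprotein receptor Lrp8, on array B, was lower by 0.55 (0.024). It was 1 of 9 in its list, whose genes came from both arrays, where 2.60% of array A and 0.328% of array B were called lower. At day 35 Tgfb1 was lower by 0.27 (0.0205) and Itgax, a chain of complement receptor 4, was higher by 0.26 (0.0277). They were 1 of 12 and 1 of 9 in their lists, where 5.58% of array A was called lower and 1.77% higher. No retinoid or prion-related gene was called in any contrast of a day with PBS or of late with early, and 1 and 0 of them had an unadjusted p under 0.05 late against early, against 29.4% of array A. Alternative settings were not run for these list genes.

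Markers of other stromal cells were summed over the same days, and single genes among them changed. The 10 tested fibroblast markers summed to 13130 to 14150 in PBS samples, 16290 to 16680 at day 3 and 16210 to 16550 at day 35, without overlap, while day 27, at 14130 to 16330, overlapped PBS. At day 3, 1 of the 10 was called higher, the matrix protein Lum (0.83, limma adjusted p = 0.000131), against 0.139% of array A, and the list median was 0.21. At day 35, 5 of the 10 were called higher, against 1.77%. Late against early, the contrast in which Prnp and Lrat were called, none of the 10 was called or had an unadjusted p under 0.05 in the limma fit.

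The 8 endothelial markers summed to 11140 to 13270 in PBS samples, 7997 to 9167 at day 3 and 9250 to 10200 at day 35. The fall was that of Glycam1, a ligand made by high endothelial venules, which read 5807 ± 727 in PBS samples and 1954 ± 303 at day 3 (SD, n = 3 each) and was the 1 gene of the list called lower on either day. The other 7 summed to 5904 to 6648 in PBS samples, 6341 to 6924 at day 3 and 5600 to 6642 at day 35, each overlapping PBS, and the median log2 change of the 8 at day 3 was 0.04. The part of these fibroblast and endothelial values in the changes of Clu, Prnp and Lrat was not tested.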

How the data were processed

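Mouse lymph node RNA was measured on 2 Affymetrix arrays. The authors deposited 1 linear intensity per probe set and sample, and the sources used here do not give its software, background correction or scaling. Medians of single arrays lay between 273 and 299.5 (A) or 149.9 and 165.2 (B), so no scaling was added. Genes were named from the platform annotation, which listed 20380 and 14661 probe sets under 1 symbol. Values under the 20th percentile (122.6 and 76.57) were raised to it before log2. A probe set was tested where it exceeded the table median (286.7 and 157.9) on at least 3 of 18 arrays (12231 and 12516 did). Each array was fitted with limma 3.58.1 in R 4.3.3 (lmFit, eBayes with trend), all 6 groups in 1 fit, two-sided p adjusted by Benjamini-Hochberg within array and contrast. The procedure was tested on simulated data. Groups came from sample titles. In 1 array B sample of day 1 the source field has words that fit no group.

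The members, gene lists and tests were chosen with earlier results of these data known. Every member was named. Likeness took the 3 single-symbol genes with the highest r to a member's brightest tested probe set, on its own array. Of each other list, counts and up to 4 called genes of smallest p were used. Marker sums add the brightest tested probe set of each gene. The number of arrays limits the precision. Alternatives covered scaling, floor, filter, variance model, array weights, a replicate block, fits limited to the compared groups, a B cell covariate, omission of the 3 samples of lowest weight and of single arrays.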

Additional observations from a re-analysis of the deposited data

Results flagged for a closer look

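For 5 member probe sets the difference between the late mean (days 27 and 35) and the early mean (days 1, 2 and 3) passed the test of the difference itself. They were 0.48 for Lrat on 1444487_at, 0.26 for Prnp on 1448233_at, and 0.15, 0.16 and 0.18 for Clu on 1418626_a_at, 1437458_x_at and 1454849_x_at (log2, late minus early, limma). The calls of Clu on 1418626_a_at and 1437458_x_at were lost in most fits without an array. On each of these Clu probe sets and on 1454849_x_at, the day 27 mean lay below that of day 1, and only day 35 lay above it. The PBS samples, all of day 0, cancel in this difference, which therefore compares treated nodes by day of harvest, and time and treatment cannot be told apart in it.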

How the results depend on the processing

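Prnp and Lrat late against early were called in each of the 11 other settings and 15 omissions, and no result reversed. Of the 16 single probe sets over all contrasts, 71 alternative values ended a call and 70 made one. With the replicate number as a block, the members called were 0, 0, 2, 1 and 0 at days 1, 2, 3, 27 and 35, 0 for the early mean, 4 late against early, 0 for day 35 against day 27 and 7 in the F test. Samples of the same number correlated in their deviations at a median of 0.02 on array A and 0.37 on array B, against 0 and -0.1 for different numbers, with pairs down to -0.49 and -0.41, so the numbers were not taken to pair samples.

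Counts of called members moved most with array weights, to 3, 7, 6, 4 and 1 at days 1, 2, 3, 27 and 35, 6 for the early mean, 8 late against early and 4 for day 35 against day 27, but the weight estimate on array B stopped before it converged, with 1 weight at 17.3. Quantile normalisation gave 3 at day 2, 4 at day 3 and 2 early, and a common median gave 1, 4, 0 and 3 at day 3, day 27, early and late against early. No filter gave 1 at day 35 and 3 late against early, a filter on 9 of 18 arrays gave 0 early, and no variance trend gave 0 early and 3 late against early. Fits of only the groups compared gave 1 at day 2, 1 at day 3, 0 at day 27, 4 early and 3 late against early. The B cell covariate gave 1, 5 and 2 at days 2, 3 and 27 and 2 early. Without the 3 samples of lowest weight they were 4 at day 2, 1 at day 35 and 4 early. The shares of all probe sets called in these alternative fits are not given here, so the counts cannot be set against a background. The causes of these moves were not tested.

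With 1 array left out, the counts ran from 0 to 0 at days 1, 2, 3 and 35, from 0 to 4 at day 27, from 0 to 1 early, from 2 to 6 late against early, from 0 to 2 for day 35 against day 27 and from 7 to 7 in the F test. Of the 4 untested members, 3 lay under the floor on 17 or 18 arrays, which gives no more than a bound for them.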
